A study of Caenorhabditis elegans with 12 samples.

Results

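Hedgehog-like genes (the warthog, groundhog, ground-like and hog families, named *wrt*, *grd*, *grl* and *hog*) and genes for patched and patched-related proteins (*ptc* and *ptr*) were followed in whole *C*. *elegans*. They were chosen by gene name alone, as the rows of the comparison tables whose name starts with 1 of these 6 prefixes. This gave 35 genes of 12749, and 33 of them are in all 3 tables. The 35 comprise 4 *wrt*, 7 *grd*, 11 *grl*, 1 *hog*, 9 *ptr* and 3 *ptc* genes. Of 86 genes with these names in the annotation, the other 51 were not analysed here.

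RNA came from whole day 1 adult worms in 4 groups of 3 biological repeats, which gave 12 libraries. The groups were *mdt-15(-)* mutants at 15 °C, *mdt-15(-)* mutants at 25 °C, wild type (WT, the Bristol N2 strain) at 15 °C and WT at 25 °C. The mutants carry *tm2182*, a reduction-of-function allele of *mdt-15*, which encodes a subunit of the Mediator complex that couples transcription factors to RNA polymerase. The tables compare *mdt-15(-)* with WT at each temperature and WT at 15 °C with WT at 25 °C, by limma after the voom transformation, in which log2 cpm (the count of a gene scaled to the size of its library) is weighted by precision.

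In most animals a Hedgehog ligand binds Patched, a membrane protein with a sterol-sensing domain, and thereby releases Smoothened, which controls GLI transcription factors. *C*. *elegans* has no clear Hedgehog or Smoothened gene. It has instead expanded families of secreted hedgehog-like proteins, several of which share the Hog domain of Hedgehog, and of patched-related membrane proteins. Members of both are best known in this animal for roles in molting and the cuticle, in glia and other epithelial cells, and in cell division in the germ line, and many of the genes cycle with the larval molts. The worms here were day 1 adults, and whether every library lay outside those molts was not tested.

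No value per library was used for these results, because each table holds 1 row per gene and comparison. Levels are therefore estimates for each group, solved from the average expression over all libraries and the log2 fold changes. They carry no spread of their own, so each error below is the standard error (SE) of a difference between groups. The SE was taken from the ratio of each log2 fold change to its moderated t. In bulk samples, fewer cells of a type and less RNA per cell cannot be told apart. The *mdt-15* gene itself had log2 fold changes of -0.997 (SE 1.66) at 15 °C and -1.57 (SE 1.88) at 25 °C in *mdt-15(-)* against WT, and neither passed the test, so it could not serve as a check of the genotype labels.

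The genes were mostly low. Their median average expression was 0.92 log2 cpm, against 2.85 over all 12749 genes, and per kilobase of exon it was 0.79 against 2.47. The authors removed genes by a cpm limit of 1, and several members in the tables still had estimated group levels under 1 cpm, so the limit was not applied to these group estimates. Members without a row in the tables were not described. Per kilobase, the groundhog family was the highest, with a median of 4.09 log2 cpm over 7 genes. The ground-like family had a median of 1.16, the warthog family 0.87, the *ptc* genes -0.77 and the *ptr* genes -0.90. The summed exons of the *grd* genes had a median length of 633 bp, against 2954 bp for *ptr* and 4455 bp for *ptc* genes.

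The highest members per kilobase were *grd-3* (8.72 log2 cpm per kb, above 97.1% of all genes) and *grd-5* (8.37, above 96.4%), the second named after its values were seen. They were followed by *grd-10* (6.09), *grl-4* (4.65), *grd-14* (4.09), *wrt-5* (4.02) and *grd-13* (3.85). The highest *ptr* gene was *ptr-2* at 3.32, and *ptc-1* stood at 1.92. At the low end, *ptc-3* stood at -0.77 and *ptc-2* at -1.22, and the lowest member, a *ptr* gene, stood at -1.79.

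**Figure D1:**
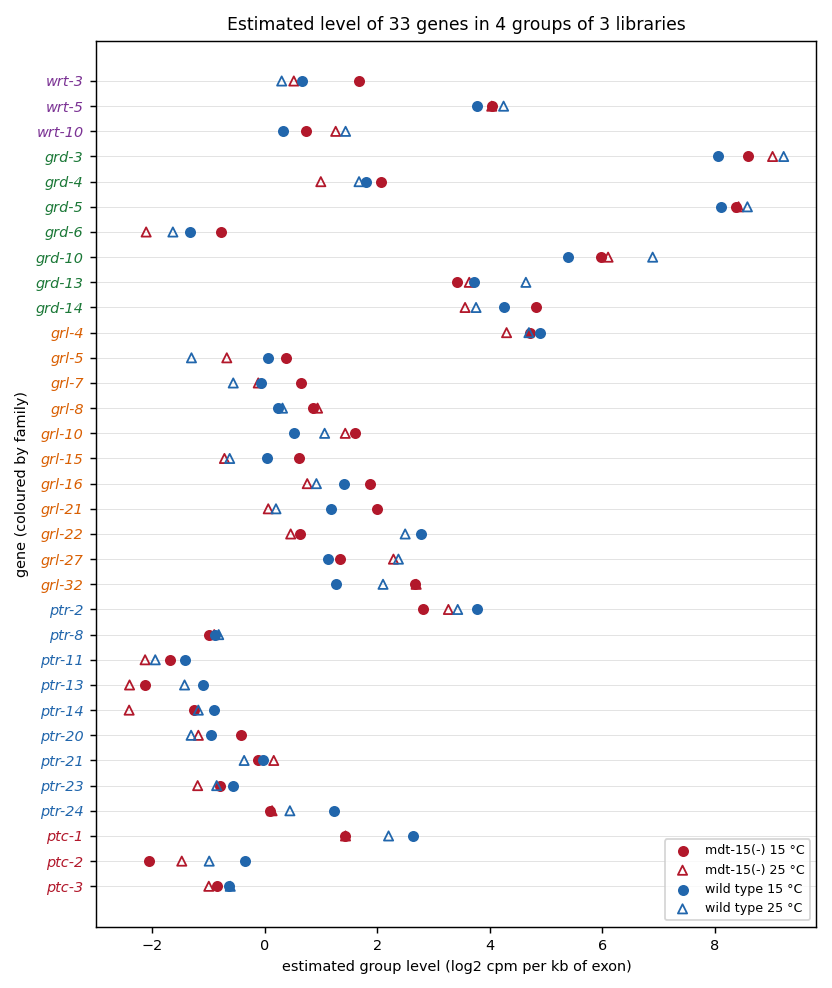
Estimated group level (log2 cpm per kb of exon, x axis) of the 33 genes with a level in all 4 groups of 3 libraries (y axis, coloured by family), with circles for 15 °C, triangles for 25 °C, red for *mdt-15(-)* and blue for WT. *grd-3* is the highest gene (8.72 on average over all libraries), most *ptr* genes lie below 0, and for *grl-22* both WT points lie to the right of both *mdt-15(-)* points.

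The question at 15 °C was which of these genes differed between *mdt-15(-)* and WT worms in the cold. A gene was called at a fold change over 1.5 with an unadjusted limma p under 0.05. At 15 °C, 3 of 33 members were called (9.09%): *wrt-3* and *grl-10* rose and *grl-22* fell in *mdt-15(-)*. Over all 12443 genes tested the call was made for 23%, of which 17.3% were higher and 5.76% lower. The share of members is below that background, and no test of this difference was made. The median SE was 0.61 for members and 0.44 for all genes. At a given fold change a call was therefore harder to reach for many members.

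The ground-like gene *grl-10* (WBGene00001719) lies on chromosome V, 7774545 to 7775759 of WBcel235, on the plus strand. Its estimated levels were 2.97 cpm in *mdt-15(-)* at 15 °C, 2.62 cpm in *mdt-15(-)* at 25 °C, 1.39 cpm in WT at 15 °C and 2.03 cpm in WT at 25 °C. WT at 15 °C was therefore the lowest of its 4 groups. The log2 fold change at 15 °C was 1.09 (SE 0.27), with a Benjamini-Hochberg adjusted p of 0.0372 from limma. It was the 1 member below an adjusted p of 0.05 in any of the 5 comparisons, while 7.09% of all genes were below it in this one. Its error was small for its level. The SE of *grl-10* for temperature in WT was 0.28, against a median of 0.53 for genes within 0.5 log2 units of its level. It exceeded that of 7.04% of them. At 25 °C the log2 fold change of *grl-10* was 0.37 (SE 0.27) and did not pass the test. One end of *grl-10* overlaps *rpl-39*, a ribosomal protein gene on the opposite strand, by 18 bp. *rpl-39* averaged 12.57 log2 cpm, far above *grl-10* (1.11), and its own log2 fold change at 15 °C was -0.14. Whether strand was used in counting is unknown here, and the part of reads from *rpl-39* in the value of *grl-10* was not tested.

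The warthog gene *wrt-3* (WBGene00006949, chromosome IV, 9473633 to 9477456, minus strand) was estimated at 7.81 cpm in *mdt-15(-)* at 15 °C, 3.49 cpm in *mdt-15(-)* at 25 °C, 3.86 cpm in WT at 15 °C and 3.004 cpm in WT at 25 °C. Only the cold *mdt-15(-)* group stood apart, and the other 3 lay close together. At 15 °C its level was 2.02-fold higher in *mdt-15(-)* than in WT (log2 fold change 1.02, SE 0.30, adjusted p = 0.068 by limma). At 25 °C the log2 fold change was 0.22 (SE 0.33). An annotated pseudogene on the same strand shares 1686 bp with the gene span, and its share of the reads counted for *wrt-3* was not tested.

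The ground-like gene *grl-22* (WBGene00001731, chromosome III, 5413137 to 5414011, minus strand) was the only member called lower in *mdt-15(-)* at both temperatures. It was not the only one with negative values at both. Its levels were 0.914 cpm in *mdt-15(-)* at 15 °C, 0.816 cpm in *mdt-15(-)* at 25 °C, 4.07 cpm in WT at 15 °C and 3.34 cpm in WT at 25 °C. Both *mdt-15(-)* groups were below both WT groups. The log2 fold change was -2.16 (SE 0.79) at 15 °C and -2.03 (SE 0.80) at 25 °C, each fold change being that of *mdt-15(-)* over WT. The adjusted p from limma was 0.125 at 15 °C and 0.366 at 25 °C. The 95% interval at 15 °C ran from -3.92 to -0.40, a wide range for a gene that averaged only 0.84 log2 cpm. The span of *grl-22* overlaps that of *W03A5.1* on the opposite strand by 78 bp, and that gene was not analysed here.

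The remaining hedgehog-like genes were not called at 15 °C. Over the 21 hedgehog-like genes tested, 18 had a log2 fold change above 0 and 3 had one below 0. The median was 0.53, against a median of 0.04 over all genes, where 6463 of 12443 were above 0. By family, 3 of 3 *wrt*, 6 of 7 *grd* and 9 of 11 *grl* values were above 0. The same libraries enter all these values and some *grd* genes are close neighbours, so the signs are not separate observations. The log2 fold change was 0.26 (SE 0.37) for *wrt-5*, a warthog gene, 0.53 (SE 0.30) for *grd-3*, 0.59 (SE 0.44) for *grd-10*, 0.57 (SE 0.37) for *grd-14*, 0.26 (SE 0.32) for *grd-4*, -0.29 (SE 0.41) for *grd-13* and -0.16 (SE 0.46) for *grl-4*. None of these 7 passed the test. The 11 *grl* values ran from -2.16 to 1.41, and the highest SE among them was 1.01.

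The patched and patched-related genes had mostly negative values and no call. Of 12 *ptr* and *ptc* genes, 1 had a log2 fold change above 0 at 15 °C and 11 had one below 0, and their median was -0.31. Over all genes, 5980 of 12443 were below 0. The same libraries enter these values too, so their signs are not separate observations. None of the 12 was called, and none had an unadjusted p under 0.05 by limma. The 1 above 0 was *ptr-20* (0.54, SE 0.36), named after its values were seen. *ptc-1*, which in *C*. *elegans* is needed for cell division in the germ line, was estimated at 13.6 cpm in *mdt-15(-)* at 15 °C, 13.7 cpm in *mdt-15(-)* at 25 °C, 31.7 cpm in WT at 15 °C and 23.3 cpm in WT at 25 °C. Its groups were ordered with both *mdt-15(-)* levels below both WT levels, but the log2 fold change at 15 °C was -1.22 with an SE of 0.83 (adjusted p = 0.391 by limma). The interval of this difference, -3.07 to 0.62, covers both no change and a large fall.

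The other patched homologs also had values below 0, with errors of very different size. *ptc-3*, a Patched homolog essential for development, was estimated at 2.46 cpm in *mdt-15(-)* at 15 °C, 2.24 cpm in *mdt-15(-)* at 25 °C, 2.88 cpm in WT at 15 °C and 2.91 cpm in WT at 25 °C. Its log2 fold change at 15 °C was -0.22 (SE 0.32), with an interval of -0.93 to 0.48. *ptc-2*, which the annotation lists as a pseudogene although the tables list it as protein-coding, had -1.69 (SE 1.33). *ptr-2*, the highest *ptr* gene, was estimated at 20.4 cpm in *mdt-15(-)* at 15 °C, 27.9 cpm in *mdt-15(-)* at 25 °C, 39.9 cpm in WT at 15 °C and 31.3 cpm in WT at 25 °C, and its log2 fold change at 15 °C was -0.96 (SE 0.56, adjusted p = 0.315 by limma).

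At 25 °C, *grd-13* and *grl-22* were called lower in *mdt-15(-)* and no member was called higher. These 2 of 35 (5.71%) stand against 9.57% of all 12749 genes, of which 3.72% were lower and 5.85% higher. The groundhog gene *grd-13* (WBGene00001702) was estimated at 7.59 cpm in *mdt-15(-)* at 25 °C, against 15.2 cpm in WT at 25 °C. The log2 fold change was -1.01 (SE 0.39, adjusted p = 0.343 by limma). Both calls at 25 °C were lost with standard errors 1.2 times as large, and no member had an adjusted p under 0.05, as 3.1% of all genes had. The hedgehog-like genes had 6 values above 0 and 17 under it at 25 °C (median -0.16), and all 7 *grd* values were below 0 (-1.01 to -0.16). The 12 *ptr* and *ptc* genes had 2 above and 10 under it (median -0.33, range -1.23 to 0.53). The median of all genes was -0.03, and 6736 of 12749 were below 0. Here too the members share libraries, so the signs are not separate observations. At this temperature *ptc-1* had -0.77 (SE 0.85), *ptc-2* -0.49 (SE 1.29), *ptc-3* -0.38 (SE 0.32) and *ptr-2* -0.16 (SE 0.55), and none passed the test. *hog-1*, the 1 gene of its family, encodes a protein with a Hog domain and had -0.16 (SE 0.47). Neither *hog-1* nor *wrt-1* is in the table for 15 °C.

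**Figure D2:**
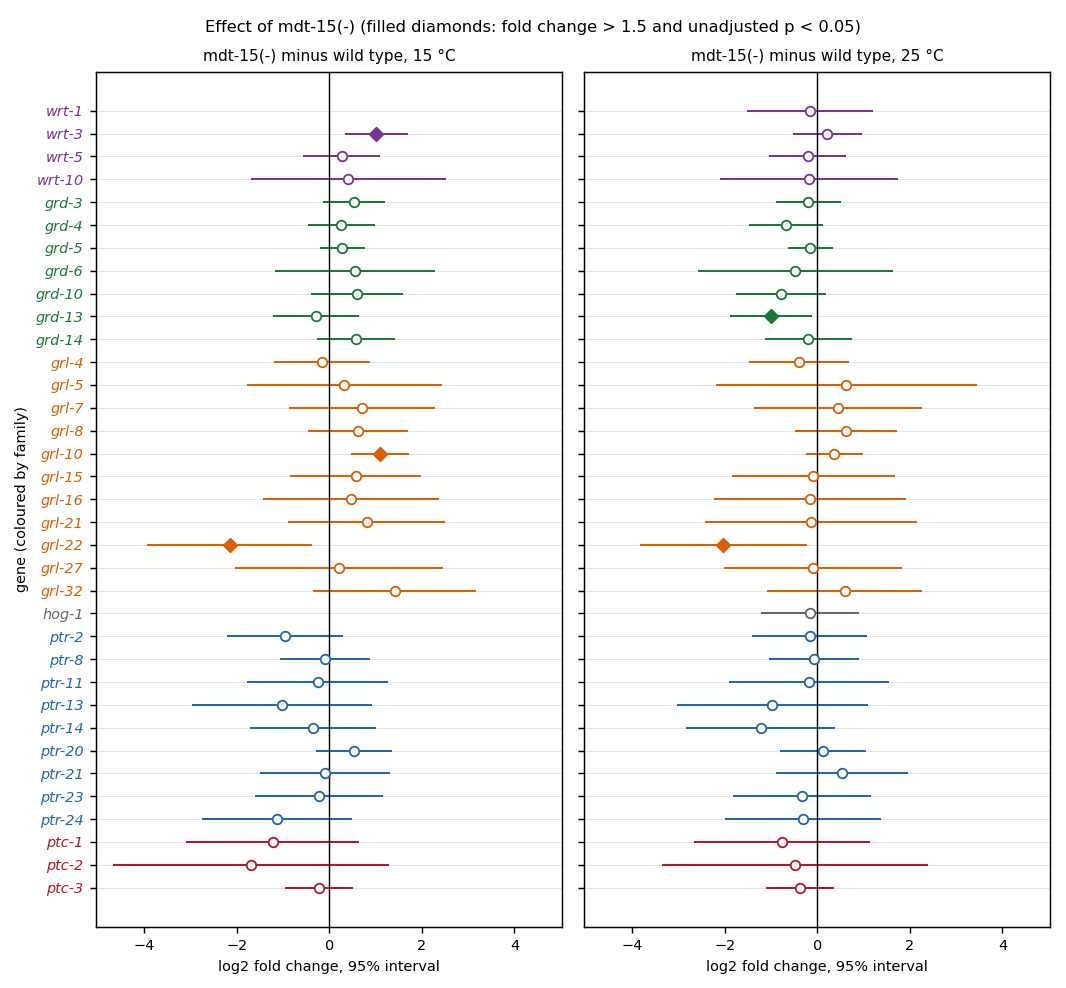
Log2 fold change (*mdt-15(-)* minus WT, x axis) of each member at 15 °C (left) and 25 °C (right), with bars for the 95% interval, and filled diamonds for genes past a fold change of 1.5 and an unadjusted p under 0.05. At 15 °C, 18 of 21 hedgehog-like genes lie right of 0 and 11 of 12 *ptr* and *ptc* genes left of it, but only *wrt-3*, *grl-10* and *grl-22* were called, and *grl-22* stands far to the left in both panels. Because the members share libraries, their signs are not separate observations.

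The comparison of temperatures within a genotype asked which members differed between cold and warm worms. In WT, *grd-3*, *grd-10* and *grd-13* were called lower at 15 °C and no member was called higher. These 3 of 35 (8.57%) stand against 9.37% of all genes, of which 6.18% were lower and 3.19% higher. *grd-3* was estimated at 184 cpm at 15 °C and 412 cpm at 25 °C in WT, with a log2 fold change of -1.17 (SE 0.30, adjusted p = 0.12 by limma). *grd-10* (WBGene00001699) was estimated at 26.4 cpm at 15 °C and 75.2 cpm at 25 °C in WT, with a log2 fold change of -1.51 (SE 0.43, adjusted p = 0.169 by limma). For *grd-13* the estimates were 8.01 cpm at 15 °C and 15.2 cpm at 25 °C in WT, with a log2 fold change of -0.93 (SE 0.38, adjusted p = 0.416 by limma), a call that was lost with standard errors 1.2 times as large. No member had an adjusted p below 0.05 (1.24% of all genes had).

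These 3 genes are neighbours. On chromosome IV, all on the plus strand, *grd-13* occupies 3438312 to 3439507, *grd-3* 3439655 to 3440453 and *grd-10* 3441055 to 3441841, with 147 bp and 601 bp between them. In *mdt-15(-)* worms none of the 3 was called for temperature. A call in 1 genotype alone does not show that the temperature effect differed between genotypes. In the direct test of that difference, given below, only *grd-10* of the 3 was called, by unadjusted p. *grd-3* was estimated at 266 cpm at 15 °C and 360 cpm at 25 °C in *mdt-15(-)*, *grd-10* at 39.8 cpm at 15 °C and 43.4 cpm at 25 °C, and *grd-13* at 6.53 cpm at 15 °C and 7.59 cpm at 25 °C. The log2 fold changes in *mdt-15(-)* were -0.44 for *grd-3* (SE 0.30), -0.13 for *grd-10* (SE 0.43) and -0.22 for *grd-13* (SE 0.42). Reads that cross from one close neighbour into the next could be counted for either, and their share was not tested.

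In *mdt-15(-)*, *wrt-3*, *grd-4* and *grd-14* were called higher at 15 °C and no member was called lower. Thus 3 of 33 (9.09%) were called, against 18.8% of all genes, of which 12.9% were higher and 5.86% lower. No member had an adjusted p under 0.05, against 3.3% of all genes. This comparison was computed from the 3 tables of the others. *wrt-3* was 2.24-fold higher in the cold than at 25 °C in *mdt-15(-)* (log2 fold change 1.16, SE 0.30, adjusted p = 0.0609 on limma's moderated degrees of freedom). *grd-14* (WBGene00001703) was estimated at 16.9 cpm at 15 °C and 7.05 cpm at 25 °C in *mdt-15(-)*, with a log2 fold change of 1.26 (SE 0.39) and an adjusted p of 0.0957 on limma's scale. *grd-4* (WBGene00001693) was estimated at 3.19 cpm at 15 °C and 1.53 cpm at 25 °C in *mdt-15(-)*, with 1.06 (SE 0.34) and an adjusted p of 0.0994 on that scale. In WT the log2 fold changes at 15 °C were 0.36 (SE 0.32) for *wrt-3*, 0.49 (SE 0.40) for *grd-14* and 0.12 (SE 0.33) for *grd-4*, and none passed the test. None of these 3 genes was called in the direct test of the difference between genotypes, given below. *grd-14* and *grd-4* are neighbours on chromosome X, on the plus strand from 8500021 to 8501037 and from 8501222 to 8502288, 184 bp apart.

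**Figure D3:**
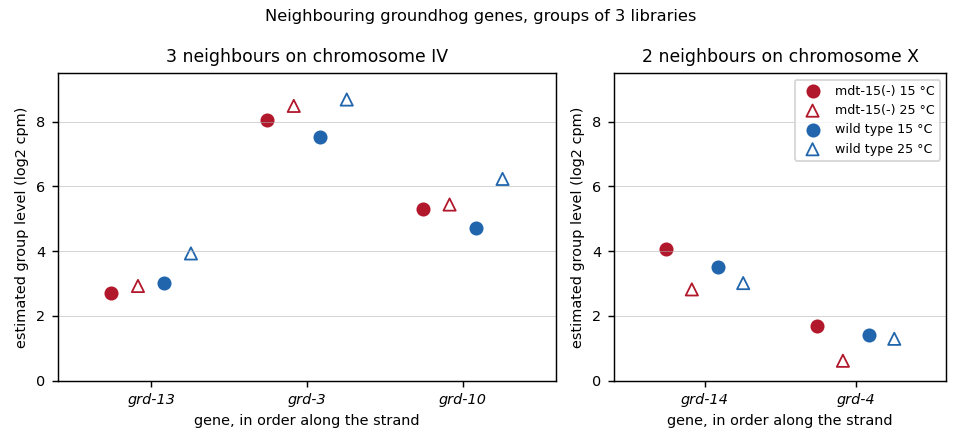
Estimated group level (log2 cpm, y axis) of the neighbouring groundhog genes on chromosome IV (left) and chromosome X (right), in the order of the strand, with 1 point per group of 3 libraries, red for *mdt-15(-)*, blue for WT, circles for 15 °C and triangles for 25 °C. WT at 25 °C is the highest group for *grd-13*, *grd-3* and *grd-10* (15.2, 412 and 75.2 cpm), and *mdt-15(-)* at 15 °C is the highest for *grd-14* and *grd-4* (16.9 and 3.19 cpm).

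The ground-like and *ptr* families gave no call for temperature in either genotype. In WT the 11 *grl* values ran from -1.25 to 1.36 and the 9 *ptr* values from -0.07 to 0.78. In *mdt-15(-)* they ran from -0.95 to 1.92 for *grl* and from -0.45 to 1.16 for *ptr*. Of the *ptc* genes, *ptc-1* had a log2 fold change of -0.02 (SE 0.88) in *mdt-15(-)* and 0.44 (SE 0.79) in WT, *ptc-2* had -0.58 (SE 1.44) and 0.63 (SE 1.17), and *ptc-3* had 0.14 (SE 0.33) and -0.02 (SE 0.32). For *ptc-1* the SE in WT exceeded that of 92.4% of genes within 0.5 log2 units of its level, while for *ptc-3* it exceeded that of 15.6%. The few values for temperature of *wrt-5* (0.01 in *mdt-15(-)* and -0.47 in WT), *grl-4* (0.42 and 0.19) and *ptr-2* (-0.45 and 0.35) did not pass the test. *hog-1* had 0.02 (SE 0.45) in WT. The signs of *wrt-5* in *mdt-15(-)* and of *hog-1* in WT turned when fold changes were centred on the median of all genes.

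**Figure D4:**
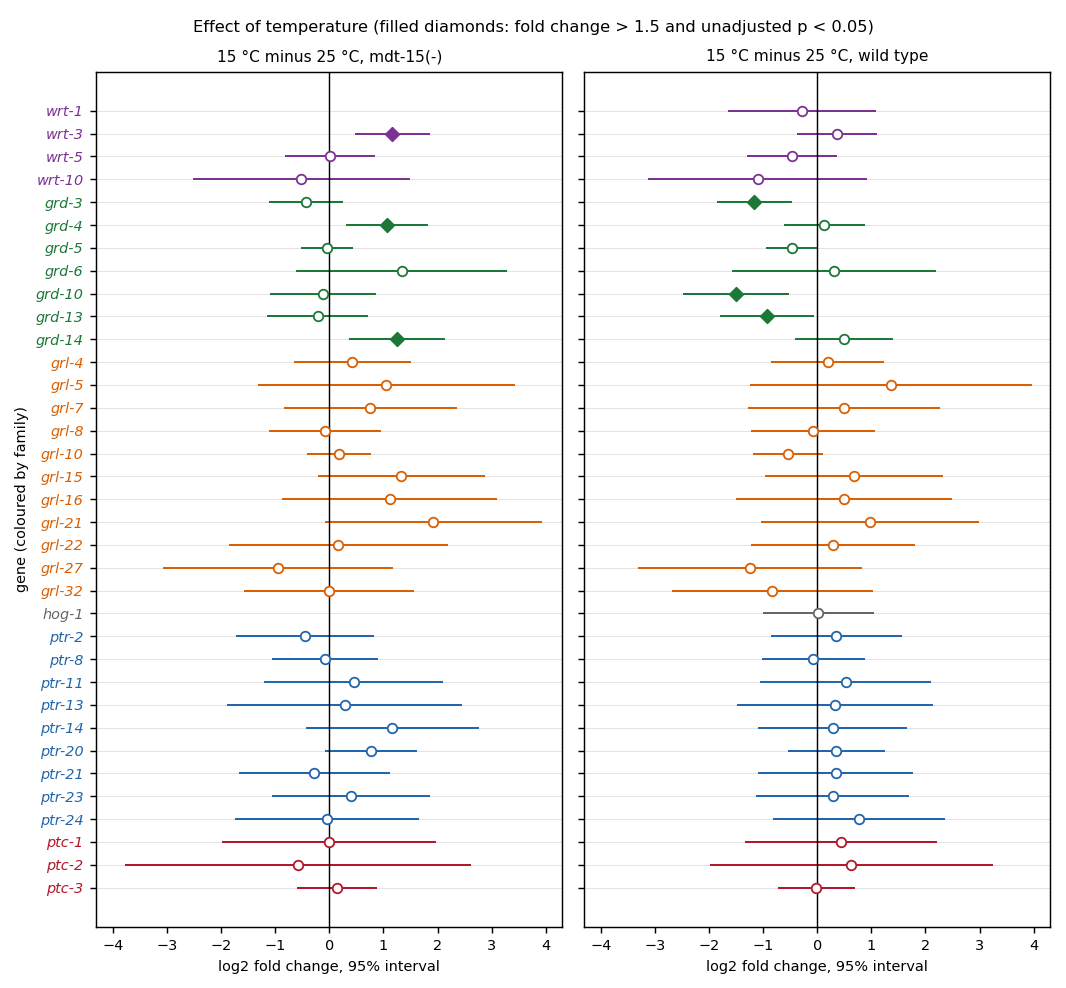
Log2 fold change (15 °C minus 25 °C, x axis) of each member in *mdt-15(-)* (left) and WT (right), with bars for the 95% interval, and filled diamonds for genes past a fold change of 1.5 and an unadjusted p under 0.05. In *mdt-15(-)* the 3 called genes, *wrt-3*, *grd-4* and *grd-14*, lie right of 0 (1.06 to 1.26). In WT the 3 called genes, *grd-3*, *grd-10* and *grd-13*, lie left of 0 (-1.51 to -0.93). Each called gene had the same sign in the other genotype, where it was not called.

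The design also allows the *mdt-15(-)* effect at 15 °C to be set against that at 25 °C, which is the question of whether the mutation acts differently in the cold. The same value is the temperature effect in *mdt-15(-)* minus that in WT. For this difference, 1 of 33 members was called (3.03%), against 6.93% of all genes, of which 5.29% were higher and 1.64% lower. By adjusted p the call was made for 0 members and 0.113% of all genes. That gene was *grd-10*. Its *mdt-15(-)* log2 fold change was 0.59 (SE 0.44) at 15 °C and -0.79 (SE 0.43) at 25 °C, and neither passed the test on its own. The difference was 1.38 (SE 0.61, 95% interval 0.02 to 2.74, adjusted p = 0.711 on limma's moderated degrees of freedom). The call was lost when fold changes were centred on the median of all genes, with 8 degrees of freedom and with errors 1.2 times as large.

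The sign of the difference was shared by much of the groundhog family, with none of the others called. All 7 *grd* differences were above 0, from 0.44 to 1.38 with a median of 0.77, against 0.05 over all genes. The values were 0.73 (SE 0.43) for *grd-3*, 0.94 (SE 0.47) for *grd-4*, 0.71 (SE 0.56) for *grd-13* and 0.77 (SE 0.56) for *grd-14*. Over all 21 hedgehog-like genes, 18 differences were above 0 and 3 were below it, and their median was 0.66. Of all 12443 genes, 6617 had a difference above 0. The same libraries enter all these values and some *grd* genes are close neighbours, so the signs are not separate observations. The 12 *ptr* and *ptc* genes gave 4 values above 0 and 8 below, and their median was -0.06. The called genes *wrt-3* and *grl-10* had 0.80 (SE 0.44) and 0.73 (SE 0.38), so a call at 15 °C alone did not show that their effect differed between temperatures. For *grl-22* the difference was -0.12 (SE 1.13), with an interval of -2.63 to 2.38.

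**Figure D5:**
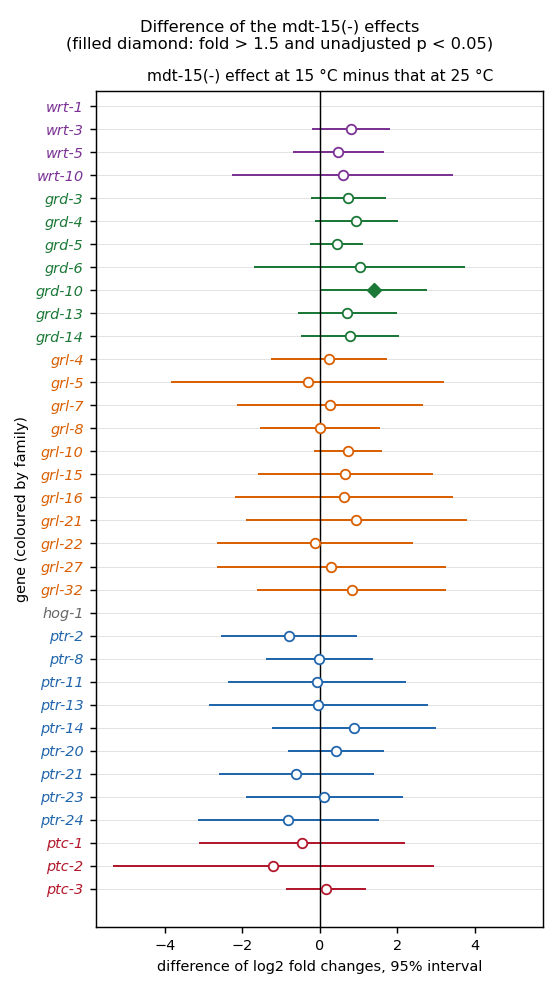
*mdt-15(-)* log2 fold change at 15 °C minus that at 25 °C (x axis) for each member in all 3 tables, with bars for the 95% interval and a filled diamond for the called gene. Only *grd-10* (1.38) was called, all 7 *grd* genes lie right of 0, and no interval lies wholly within a 2-fold change of 0.

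Marker genes of other tissues and states differed between the same groups. From a list of 20 molting and cuticle genes, 15 were in the tables, and their sums were 6942 cpm in *mdt-15(-)* at 15 °C, 4282 cpm in *mdt-15(-)* at 25 °C, 3717 cpm in WT at 15 °C and 6162 cpm in WT at 25 °C. None of them was called in any comparison, nor was any of the 5 of 6 hypodermis markers in the tables. Most of both sums came from the adult collagen gene *col-19*. Of 9 glia markers, 3 were in the tables and none was called.

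Some sperm, oocyte, embryo and intestine markers were called. Among all genes, 17.3% were called higher and 5.76% lower in *mdt-15(-)* against WT at 15 °C, and 5.85% and 3.72% at 25 °C. For 15 °C against 25 °C the shares were 12.9% and 5.86% in *mdt-15(-)* and 3.19% and 6.18% in WT. For the difference of the *mdt-15(-)* effects they were 5.29% and 1.64%. Of 12 sperm markers, 11 were in the tables (all but *spe-9*), with sums of 1361 cpm in *mdt-15(-)* at 15 °C, 292 cpm in *mdt-15(-)* at 25 °C, 385 cpm in WT at 15 °C and 458 cpm in WT at 25 °C. Of these, 5 rose in *mdt-15(-)* against WT at 15 °C, where *wrt-3* and *grl-10* rose. In *mdt-15(-)* at 15 °C against 25 °C, where *wrt-3*, *grd-4* and *grd-14* rose, 8 sperm markers rose. In the difference of the *mdt-15(-)* effects, 3 sperm markers were higher. All 11 oocyte markers were in the tables and summed to 2160 cpm in *mdt-15(-)* at 15 °C, 2802 cpm in *mdt-15(-)* at 25 °C, 3924 cpm in WT at 15 °C and 3725 cpm in WT at 25 °C, and 8 fell in *mdt-15(-)* against WT at 15 °C. For temperature, 2 oocyte markers fell at 15 °C in *mdt-15(-)* and 1 rose at 15 °C in WT, and 1 fell in *mdt-15(-)* against WT at 25 °C. Of 14 zygotic embryo markers, 8 were in the tables (*end-1*, *end-3*, *med-1*, *med-2*, *tbx-37* and *tbx-38* were not), with 22.95 cpm in *mdt-15(-)* at 15 °C, 36.9 cpm in *mdt-15(-)* at 25 °C, 30.6 cpm in WT at 15 °C and 40.1 cpm in WT at 25 °C. Of these, 3 fell in *mdt-15(-)* against WT at 15 °C, 5 fell at 15 °C in *mdt-15(-)* and 2 fell at 15 °C in WT, where *grd-3*, *grd-10* and *grd-13* fell. Most of the embryo sums came from *pal-1*, which was not called in any comparison. In the difference of the *mdt-15(-)* effects, where *grd-10* was called, 3 embryo markers were lower. The 8 intestine markers summed to 4248 cpm in *mdt-15(-)* at 15 °C, 7881 cpm in *mdt-15(-)* at 25 °C, 5991 cpm in WT at 15 °C and 8427 cpm in WT at 25 °C. Most of these sums came from *vit-2*, *vit-5* and *vit-6*. Of the 8, 1 rose (*elt-2*) and 1 fell (*vit-5*) in *mdt-15(-)* against WT at 15 °C. At 15 °C in *mdt-15(-)*, 4 fell, namely *ges-1* and the *vit* genes. The other 4 had values above 0 in that comparison and were not called. In WT, 2 fell at 15 °C (*ges-1* and *vit-6*), again where *grd-3*, *grd-10* and *grd-13* fell. The part of these tissues in the values of the hedgehog-like and patched-related genes was not tested.

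From a list of 10 related genes outside the 6 families, 4 were in the tables, namely *qua-1*, which has a Hog domain, *tra-1*, the GLI homolog that acts in sex determination, *scp-1*, a sterol-sensing SCAP homolog, and *ncr-1*, an NPC1-related gene. None was called in any comparison. At 15 °C in *mdt-15(-)* against WT, *qua-1* had a log2 fold change of 0.69, *tra-1* -0.08 and *scp-1* -0.02, and at 25 °C *scp-1* had 1.29. The other 6, among them the Dispatched-related *che-14* and the patched-related *daf-6*, were not analysed here.

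The precision sets how far an absent call can be read. At 15 °C in *mdt-15(-)* against WT, the 95% intervals of the members reached a median of 1.36 log2 units to each side, and for 3 of 33 members the whole interval lay within a 2-fold change of 0. At 25 °C this held for 4 of 35 members. For the others the interval reached past a 2-fold change in at least 1 direction, so that a missing call there does not show that the level was the same.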

How the data were processed

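RNA-seq of 12 libraries of whole worms was analysed. Per the submitters' processing notes, HISAT2 2.0.5, StringTie 1.3.3, edgeR 3.10.5 and limma 3.24.15 were used, and reads were aligned to ce11. The authors removed genes with a cpm under 1 and deposited 1 table per comparison. The deposited tables hold log2 fold changes and log2 average expression, a score (limma's moderated t) and p-values, raw and Benjamini-Hochberg adjusted. No value per library was used, so depth is unknown, repeats could not be compared and no fit on counts was made. Columns of samples outside this series numbered 0. Counting mode and strand are not given in the sources used here.

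The deposited log2 fold changes run as WT minus *mdt-15(-)* and 25 °C minus 15 °C and were turned round. The direction was checked by sign against labelled gene lists supplied with the study (332 of 332 for WT temperature and for *mdt-15(-)* at 15 °C, 7 of 7 for *mdt-15(-)* at 25 °C). SE was log2 fold change over t, and degrees of freedom (10.4) were solved from t and p. The difference of *mdt-15(-)* effects and the temperature effect in *mdt-15(-)* used the variances of the 3 comparisons, two-sided, adjusted over 12443 genes. The formulas were tested on simulated data. Comparisons that share libraries (WT at 15 °C, or WT at 25 °C) are not independent. Calls followed the study (fold change over 1.5, unadjusted p under 0.05).

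Coordinates come from Ensembl release 115 (WBcel235, the assembly of ce11), where 12712 of 12749 identifiers were found. *grl-32* and *ptc-2* are pseudogenes there. The genes named were all *ptc* and *hog* genes, any with an adjusted p under 0.05, the called members with the 5 highest and 5 lowest t per comparison, and the highest of each family. Others were named after their values were seen and are marked. Members and lists were chosen with earlier results of these data known. Alternatives were calls by adjusted p, no fold limit or one of 2, a minimum average log2 expression of 1, centring on the median, SE 1.2 times as large and 8 degrees of freedom. The software was matplotlib 3.10.9, scipy 1.17.1, pandas 2.3.3, numpy 2.4.6 and Python 3.11.15.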

Additional observations from a re-analysis of the deposited data

Results flagged for a closer look

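The *mdt-15(-)* effect on *grd-10* was called as differing between 15 °C and 25 °C by unadjusted p, in a test of the difference itself. For *grd-10* this difference was 1.38 on the log2 scale (SE 0.61, adjusted p = 0.711 over 12443 genes on limma's moderated degrees of freedom). Its levels were 39.8 cpm in *mdt-15(-)* and 26.4 cpm in WT at 15 °C, and 43.4 cpm in *mdt-15(-)* and 75.2 cpm in WT at 25 °C, so WT at 25 °C was the highest group. Whether any 1 library decides the value was not tested. The unadjusted call was made for 6.93% of all genes. For *grd-10* it was lost by adjusted p, with centring on the median, with 8 degrees of freedom and with errors 1.2 times as large.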

How the results depend on the processing

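No alternative reversed the direction of a called member. Centring on the median of all genes turned the sign of 2 values near 0 that were not called, *wrt-5* at 15 °C against 25 °C in *mdt-15(-)* (-0.0221, against 0.00699 uncentred) and *hog-1* at 15 °C against 25 °C in WT (-0.0214, against 0.0207 uncentred). With adjusted p and no fold limit, at 15 °C in *mdt-15(-)* 1 member stayed higher and 0 stayed lower, 0 were lower in *mdt-15(-)* at 25 °C, 0 were higher at 15 °C in *mdt-15(-)*, 0 were lower at 15 °C in WT, and 0 had a difference between the *mdt-15(-)* effects. The 1 left was *grl-10*. With average log2 expression of at least 1, *grl-22* was not tested, which left 0 lower members in *mdt-15(-)* at 15 °C and 1 at 25 °C. With standard errors 1.2 times as large, 0 members were lower in *mdt-15(-)* at 25 °C. The difference of the *mdt-15(-)* effects was called for 0 members with errors of that size, with 8 degrees of freedom and with centring on the median of all genes, under which the *grd-10* value was 1.33. A fold limit of 2 or none left each of the 10 counts within 1.5 times, with *grd-13* lost in WT at a limit of 2 and *grd-5* added in WT with none. No paired analysis was possible because the tables hold no value per library, and leaving out a repeat was not possible for the same reason. Wide intervals limit most members: at 15 °C in *mdt-15(-)* against WT the 95% interval reached a median of 1.36 log2 units to each side. The part of low expression in this width was not tested.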
